A study of Mus musculus with 8 samples.

Results

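A set of 10 genes makes up the entry and exit of the glycolytic route described here, and 9 of them were measured. They are the phosphofructokinase-regulating Pfkfb1, Pfkfb2, Pfkfb3 and Pfkfb4, the hexokinases Hk1, Hk2 and Hk3, the glucose transporter Slc2a1 and the lactate transporters Slc16a1 and Slc16a3. They were picked by name, with earlier results of these data known, out of 19938 genes that had an array row annotated to exactly 1 symbol. No row annotated to Pfkfb1 alone was found, so it is not analysed here. The brightest row was taken for each gene. All differences are log2 differences between fractions of the same tumors, and a gene is called at an adjusted p under 0.05 (limma, Benjamini-Hochberg adjustment over all genes).

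The data are 8 Affymetrix Mouse Gene 1.0 ST arrays of sorted cells from mammary tumors of FvB mice with the MMTV-Neu transgene, which places Neu under a promoter active in mammary epithelium. The tumors measured less than 1.0 cm across. The groups were 4 arrays of the tumor-initiating cell (TIC) fraction and 4 arrays of the CD24- fraction, which the labels call non-tumor-initiating. Each pair came from the same tumor: N251, N260, N283 and a 1:1 mix of N222 and N229, called the pool from here on and counted as 1 of 4 tumors. The labels used here do not name the surface markers of the TIC sort. All groups carry the transgene and no tissue without it was compared.

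Glucose enters most cells through facilitative transporters such as GLUT1, the product of Slc2a1, and is trapped by hexokinases, which phosphorylate it. The Pfkfb genes encode bifunctional enzymes that make and break a sugar bisphosphate. That metabolite is a potent activator of phosphofructokinase, the committing enzyme of glycolysis. Lactate leaves or enters through monocarboxylate transporters, of which MCT4 (Slc16a3) is known for export from highly glycolytic cells and MCT1 (Slc16a1) for exchange in both directions. Tumors are known for high glucose uptake and lactate output, and activated myeloid cells are too.

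The fractions stood apart in their immune transcripts. Of 13 macrophage markers 10 fell in the TIC fraction and 0 rose. Their mean log2 level per array was 6.43 to 6.75 in TIC arrays and 9.29 to 11.62 in CD24- arrays. Csf1r, the macrophage growth factor receptor, averaged 6.37 in TIC arrays and 11.43 in CD24- arrays. Of 8 pan-leukocyte markers 5 fell (7 with the tumor as a replicate block). Their mean levels were 6.65 to 6.95 in TIC arrays and 9.01 to 11.61 in CD24- arrays. Ptprc, the CD45 gene, averaged 5.90 in TIC arrays and 10.19 in CD24- arrays. Of 9 T and NK cell markers 3 fell, and all 9 were lower at an unadjusted p under 0.05 and lower in all 4 tumors. Their mean levels were 6.038 to 6.325 in TIC arrays and 7.488 to 10.149 in CD24- arrays. Of 10 neutrophil markers 0 were called (5 lower at an unadjusted p under 0.05 and 1 with the tumor as a replicate block), with mean levels of 5.73 to 5.97 in TIC arrays and 6.12 to 7.06 in CD24- arrays. S100a8, one of these neutrophil markers, averaged 5.44 in TIC arrays and 5.81 in CD24- arrays. In the CD24- arrays the macrophage mean ran from high to low in the order N251, N260, N283 and the pool. Epithelial RNA was bright in both fractions, Epcam averaging 12.09 in TIC arrays and 11.69 in CD24- arrays. Of 8 markers of dividing cells 0 were called without the block (6 higher at an unadjusted p under 0.05) and 6 rose with it, Mki67 differing by 0.72. The CD24- arrays of N251 and the pool deviated most from their group (0.272 and 0.242 log2 units on average over genes, others 0.106 to 0.177). In sorted bulk samples fewer cells of a type and less RNA per cell cannot be told apart.

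Of the 9 measured members 0 were called without the tumor in the model, while 4 had lower TIC levels with an unadjusted p below 0.05 and 0 had higher ones. Over all genes 6.24% were lower and 8.02% higher at that unadjusted threshold. The share of all genes called without the block was 0.742% lower and 0.0502% higher. With the tumor as a replicate block Pfkfb3 and Slc16a3 fell and 0 members rose, against 1.09% of all genes that fell and 0.863% that rose. The 2 members whose arrays did not overlap between fractions were Pfkfb3 and Pfkfb4, both lower in the TIC fraction, where 4.68% of all genes were separated in that direction and 5.19% in the other. Pfkfb3, Pfkfb4, Hk3 and Slc16a3 were lower in all 4 tumors, a pattern that 11.8% of all genes had. Pfkfb2 was higher in all 4, as were 23.2% of all genes, and the other 4 members had mixed signs. The median difference of the 9 members was -0.33, beside 0.038 for all genes, with Hk1 taken from the row discussed below.

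**Figure D1:**
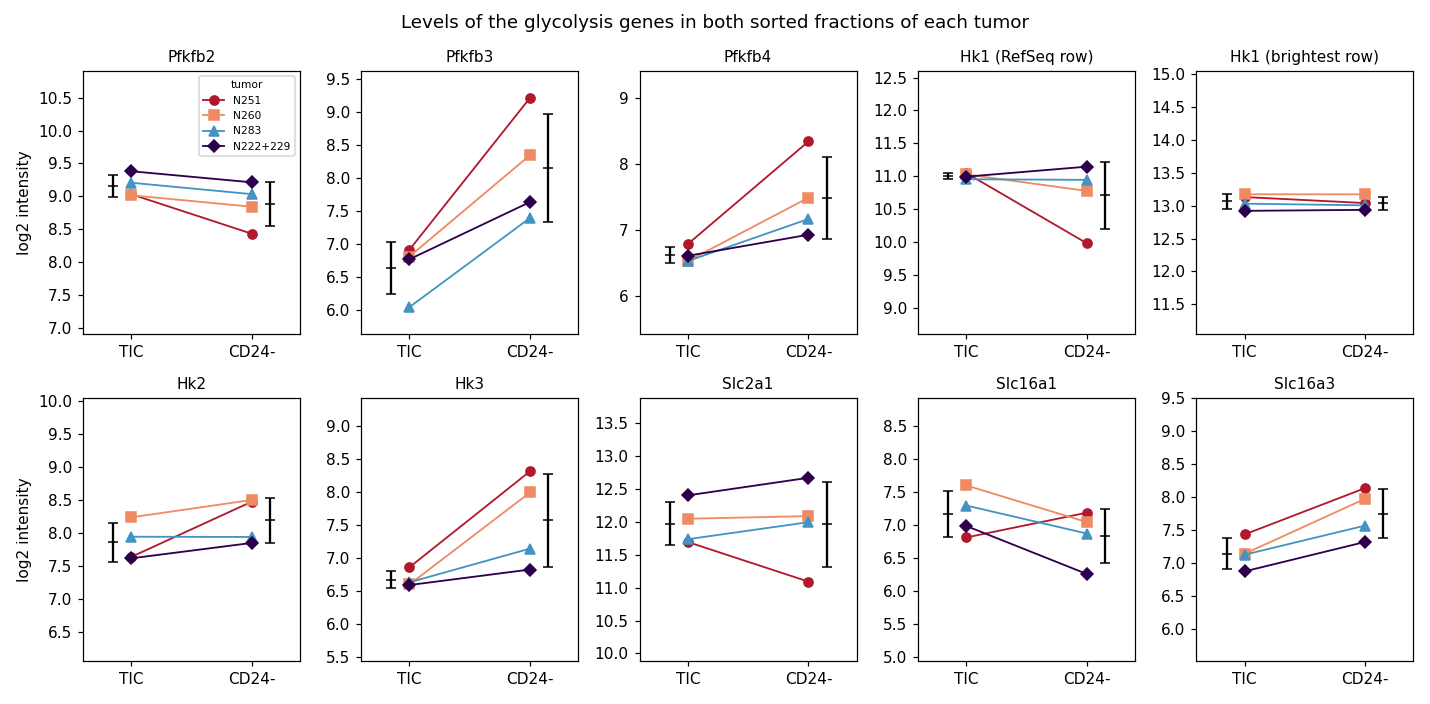
Log2 intensity of each gene in the TIC and CD24- fractions, with 1 line for each tumor or pool and the mean ± SD of the 4 arrays in black; every panel spans 4 log2 units. The lines of Pfkfb3, Pfkfb4, Hk3 and Slc16a3 are lower at the TIC end in all 4 tumors, those of Pfkfb2 are slightly higher there, and those of the remaining genes are flat or cross.

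Pfkfb3 differed most between the fractions. It encodes the isoform with the highest kinase activity relative to its phosphatase activity and is known to be induced by hypoxia and inflammatory signals. Its level was 6.91, 6.81, 6.04 and 6.77 in the TIC fraction of N251, N260, N283 and the pool, against 9.22, 8.35, 7.40 and 7.64 in the CD24- fraction. All TIC arrays lay below all CD24- arrays. Tumor N251 differed by -2.31, N260 by -1.54, N283 by -1.35 and the pool by -0.87, with a mean of -1.52 ± 0.38 (SE), a 2.86-fold lower level. It was not called without the block (adjusted p = 0.128, limma) and fell with the replicate block (adjusted p = 0.0425). With the block that call was lost without N260 (adjusted p = 0.269) or N283 (adjusted p = 0.178), settings in which 0 genes of the whole array were called in either direction (limma, 1029 lower and 1527 higher at an unadjusted p under 0.05 without N260, and 1339 and 2004 without N283).

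Pfkfb4, an isoform also known as a hypoxia-induced gene, had levels of 6.79, 6.53, 6.53 and 6.61 in the TIC fraction of N251, N260, N283 and the pool, against 8.34, 7.49, 7.17 and 6.93 in the CD24- fraction. The TIC arrays were close together and below every CD24- array, and the CD24- arrays were spread out. The mean difference was -0.87 ± 0.27 (SE), from -1.56 in N251 to -0.32 in the pool. Neither the fit without the block (adjusted p = 0.200) nor that with it (0.0974) called the gene, which passed with the tumor as a random block (adjusted p = 0.0477).

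Pfkfb2, known as the heart isoform and regulated by phosphorylation, had a positive difference in each tumor. Its level was 9.03, 9.02, 9.21 and 9.38 in the TIC fraction of N251, N260, N283 and the pool, against 8.43, 8.84, 9.03 and 9.21 in the CD24- fraction. The fractions overlapped, and the highest array of each was that of the pool. The difference was 0.60 in N251 and 0.17 in each of the others, with a mean of 0.28 ± 0.17 (SE) and a 95% interval of -0.11 to 0.66 (adjusted p = 0.500). With the block, which takes the pairing into account, the interval was 0.03 to 0.53 (unadjusted p = 0.035, adjusted p = 0.195, limma). It was 0.13 without the CD24- array of N251.

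Hk3 was lower in the TIC fraction of each tumor. This hexokinase is known for its expression in myeloid cells. Its level was 6.86, 6.60, 6.63 and 6.59 in the TIC fraction of N251, N260, N283 and the pool, against 8.32, 7.99, 7.14 and 6.82 in the CD24- fraction. The fractions overlapped by a narrow margin, the TIC array of N251 lying above the CD24- array of the pool. The mean difference was -0.90 ± 0.30 (SE), from -1.46 in N251 to -0.24 in the pool (adjusted p = 0.231, and 0.118 with the block). Without the CD24- array of the pool it was -1.15 and called (adjusted p = 0.0466), the only call among the fits that left out an array or a tumor. It was -0.652 without the CD24- array of N251 (adjusted p = 0.333).

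Hk2, the inducible hexokinase of muscle, fat and many tumors, had levels of 7.63, 8.24, 7.94 and 7.61 in the TIC fraction of N251, N260, N283 and the pool, against 8.47, 8.50, 7.94 and 7.85 in the CD24- fraction. The fractions overlapped, with N283 at the same level in both. The mean difference was -0.33 ± 0.20 (SE), with a 95% interval of -0.78 to 0.12 (adjusted p = 0.488), and of -0.69 to 0.02 with the block (adjusted p = 0.247). Tumor N251 differed by -0.84, and the mean was -0.165 without that tumor.

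Hk1, the widely expressed housekeeping hexokinase, had 2 rows, which are annotated through different records. The brightest row, which the selection takes, is annotated to Hk1 through a single GenBank record, and that record is also listed on 16 rows annotated jointly to Hk1 and Rpl17, a gene of the large ribosomal subunit. The mean levels of those 16 rows ran from 11.30 to 13.06. The brightest row averaged 13.06 ± 0.11 in TIC arrays and 13.04 ± 0.10 in CD24- arrays (SD, n = 4 each), and differed by 0.03 ± 0.10 (SE; adjusted p = 0.949). The other row carries RefSeq records of Hk1, and it is the one read as Hk1 in what follows, a choice made after the values were seen. It stood at 11.05, 11.03, 10.96 and 10.99 in the TIC fraction of N251, N260, N283 and the pool, against 9.98, 10.78, 10.95 and 11.15 in the CD24- fraction. The TIC arrays were nearly identical (SD 0.04), whereas the CD24- array of N251 was low. The mean difference was 0.29 ± 0.22 (SE), with a 95% interval of -0.21 to 0.79 (adjusted p = 0.597), and of -0.21 to 0.80 with the block (adjusted p = 0.445). It was 0.0502 without the CD24- array of N251.

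**Figure D2:**
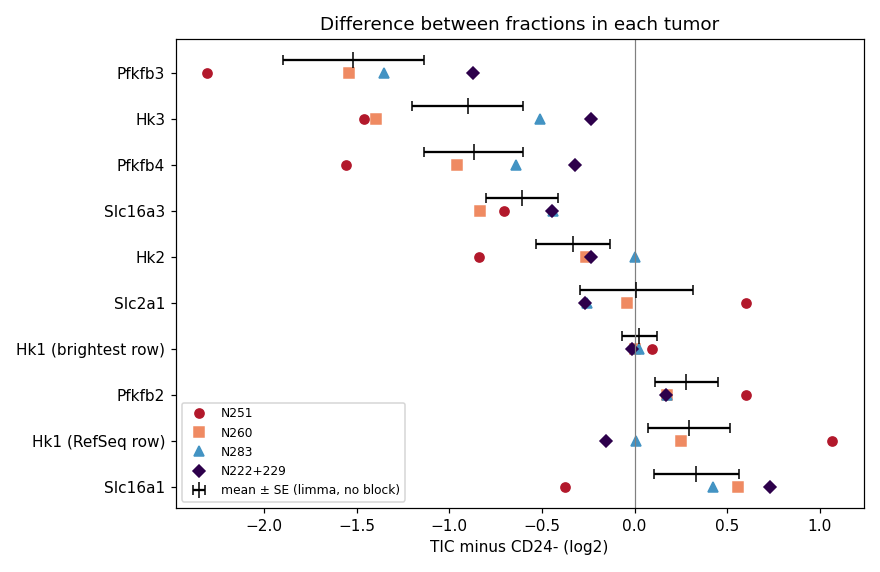
TIC minus CD24- difference (log2) of each gene in each tumor or pool, with the mean ± SE of the limma fit without a block drawn above the points. All 4 points of Pfkfb3, Hk3, Pfkfb4 and Slc16a3 lie left of 0, and N251 lies farthest out for 7 of the 9 genes when Hk1 is read from its RefSeq row.

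Slc2a1, the gene of GLUT1, was not called, and its fractions overlapped. Its level was 11.69, 12.05, 11.74 and 12.40 in the TIC fraction of N251, N260, N283 and the pool, against 11.09, 12.09, 11.99 and 12.67 in the CD24- fraction. The tumors kept the same order in both fractions, the pool highest and N251 lowest. The mean difference was 0.01 ± 0.31 (SE), with a 95% interval of -0.68 to 0.70 (adjusted p = 0.995), and of -0.39 to 0.41 with the block (adjusted p = 0.983). Its sign was positive in N251 alone (0.60), and the mean was -0.188 without that tumor and -0.0971 after cyclic loess.

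Slc16a3, the gene of the lactate exporter MCT4, had levels of 7.44, 7.14, 7.13 and 6.87 in the TIC fraction of N251, N260, N283 and the pool, against 8.14, 7.98, 7.57 and 7.32 in the CD24- fraction. The tumors ran in the same order in both fractions, so that the fractions overlapped although each tumor was lower on its TIC side. Tumor N251 differed by -0.70, N260 by -0.84, N283 by -0.44 and the pool by -0.45. The mean was -0.61 ± 0.19 (SE), a 1.52-fold lower level (adjusted p = 0.214). With the replicate block Slc16a3 fell (SE 0.10, adjusted p = 0.0479). With the block it was -0.531 without N260, -0.663 without N283 and -0.661 without the pool, and not called (adjusted p = 0.269, 0.169 and 0.0752). As for Pfkfb3, 0 genes of the whole array were called in the settings without N260 or N283.

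Slc16a1, the gene of MCT1, had levels of 6.81, 7.60, 7.30 and 6.99 in the TIC fraction of N251, N260, N283 and the pool, against 7.19, 7.05, 6.87 and 6.26 in the CD24- fraction. It was higher on the TIC side in 3 of 4 tumors and lower in N251. The mean difference was 0.33 ± 0.23 (SE), with a 95% interval of -0.19 to 0.86 (adjusted p = 0.558), and of -0.13 to 0.80 with the block (adjusted p = 0.349). With both arrays of N251 left out and the replicate block in the model it was 0.57 and called (adjusted p = 0.0331). It was 0.14 without the CD24- array of the pool, 0.191 without the TIC array of N260 and, with the block, 0.202 without the pool (adjusted p = 0.623). The mean of the dividing-cell markers was 9.07 to 10.39 in TIC arrays and 8.02 to 9.61 in CD24- arrays, and its part in the Slc16a1 difference was not tested.

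The 4 members that were lower in every tumor are shown with their promoter windows, since they shared that direction and hypoxia-inducible factors are known to bind the core ACGTG or GCGTG. The windows are RefSeq's on GRCm38.p6, from 250 bases before to 50 after a gene start, and capitals mark either core on either strand (CACGT and CACGC on the other strand). Windows for all 10 genes were found.
Pfkfb3 (chr2:11553880-11554179, minus strand): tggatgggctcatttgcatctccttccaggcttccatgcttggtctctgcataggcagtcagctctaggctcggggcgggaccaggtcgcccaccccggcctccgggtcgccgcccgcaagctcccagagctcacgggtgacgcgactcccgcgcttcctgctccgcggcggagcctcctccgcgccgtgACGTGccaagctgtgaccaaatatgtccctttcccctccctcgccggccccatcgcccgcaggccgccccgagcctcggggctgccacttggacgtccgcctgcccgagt
Pfkfb3 (chr2:11502041-11502340, minus strand): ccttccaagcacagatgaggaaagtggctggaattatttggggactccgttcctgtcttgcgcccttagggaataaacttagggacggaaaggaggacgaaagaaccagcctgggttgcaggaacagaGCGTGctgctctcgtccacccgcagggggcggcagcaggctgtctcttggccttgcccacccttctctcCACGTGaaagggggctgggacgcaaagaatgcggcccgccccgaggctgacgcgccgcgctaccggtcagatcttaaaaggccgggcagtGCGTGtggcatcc
Pfkfb4 (chr9:108991652-108991951, plus strand): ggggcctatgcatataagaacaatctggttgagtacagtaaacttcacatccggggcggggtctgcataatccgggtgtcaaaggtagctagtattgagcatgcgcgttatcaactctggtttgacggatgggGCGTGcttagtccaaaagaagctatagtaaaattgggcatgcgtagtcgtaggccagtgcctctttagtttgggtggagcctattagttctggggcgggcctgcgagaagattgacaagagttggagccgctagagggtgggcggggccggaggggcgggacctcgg
Slc16a3 (chr11:120948817-120949116, plus strand): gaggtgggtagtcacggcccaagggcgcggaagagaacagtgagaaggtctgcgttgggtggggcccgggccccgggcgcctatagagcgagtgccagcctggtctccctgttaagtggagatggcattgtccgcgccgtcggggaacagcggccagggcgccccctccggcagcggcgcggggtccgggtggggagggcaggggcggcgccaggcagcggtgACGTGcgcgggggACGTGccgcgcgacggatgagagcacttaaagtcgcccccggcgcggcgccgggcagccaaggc
Hk3 (chr13:55021336-55021635, minus strand): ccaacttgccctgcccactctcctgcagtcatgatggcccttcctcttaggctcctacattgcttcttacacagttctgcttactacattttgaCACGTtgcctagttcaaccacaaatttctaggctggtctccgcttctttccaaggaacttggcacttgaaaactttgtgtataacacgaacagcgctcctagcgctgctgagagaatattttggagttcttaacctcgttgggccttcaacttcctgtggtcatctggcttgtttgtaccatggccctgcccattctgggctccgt
Of the 17 windows of the 10 genes 13 held a core, as did 43.8% of all 32851 windows in the table. Both windows of Pfkfb3 held one, and so did the single windows of Pfkfb4, Slc16a3 and Hk3. The core was also in windows of the members that were not lower, with 5 matches for Slc16a1 and 2 for Slc2a1. Each of the 10 genes had a core in at least 1 window, so its presence was not particular to the lower members. A palindromic CACGTG counts as a match on each strand. It lies in 1 window each of Pfkfb3, Pfkfb2 and Slc16a1, and in 7.15% of all windows. These are matches of letters, and binding was not measured.

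The order of the tumors by immune transcripts was shared by 3 of the 4 lower members and by others. In the CD24- fraction Pfkfb4, Hk3 and Slc16a3 ran from high to low in the order N251, N260, N283 and the pool, the order of the macrophage mean, and Pfkfb3 had N283 and the pool exchanged. Slc16a1, which was not lower in every tumor, ran in that same order in the CD24- fraction, and Pfkfb2 and the RefSeq row of Hk1 ran in its exact reverse. The share of all genes with that order or its reverse was not counted. The CD24- arrays at its ends, N251 and the pool, were those that deviated most over all genes. Pearson correlations were taken over the 8 arrays, which are 2 groups of 4 from shared tumors. With the macrophage mean they were 0.880 to 0.927 for the 4 lower members. For Hk2, which was lower in 3 of 4 tumors, the correlation was 0.652. For Slc2a1, Slc16a1, Pfkfb2 and Hk1 they were -0.254, -0.259, -0.718 and -0.667 (-0.029 for the brightest Hk1 row). For the 4 lower members they were 0.910 to 0.983 with the neutrophil mean and 0.911 to 0.931 with the pan-leukocyte mean. Those 4 genes were grouped as lower in every tumor, and the immune means were lower too. High correlations over both fractions were thus largely set in advance. With the mean of the luminal markers the correlation was 0.852 for Pfkfb2 and 0.968 for Hk1 (0.022 for its brightest row). It was -0.940 to -0.774 for the 4 lower members. The CD24- array of N251 had a luminal mean of 9.64, against 10.29 to 10.61 on the other arrays. Pfkfb2 (8.43) and the RefSeq row of Hk1 (9.98) were also lowest on that array. These correlations were not computed without it. With the mean of the dividing-cell markers the correlation was 0.837 for Slc16a1. In the TIC fraction, where the macrophage mean was 6.43 to 6.75, the 4 genes spanned 6.04 to 7.44. The TIC arrays had lower quartiles over all genes of 6.05 to 6.25, so Pfkfb3 in N283 lay below the lower quartile of its array (6.10), and detection calls were not in the files used here. The part of immune, fibroblast, endothelial, luminal or dividing cells in these differences was not tested. All 9 members, with Hk1 from its RefSeq row, had a larger SD in the CD24- fraction than in the TIC fraction, as did 65.3% of all genes. The brightest row of Hk1 had the larger SD in the TIC fraction (0.112 against 0.099).

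**Figure D3:**
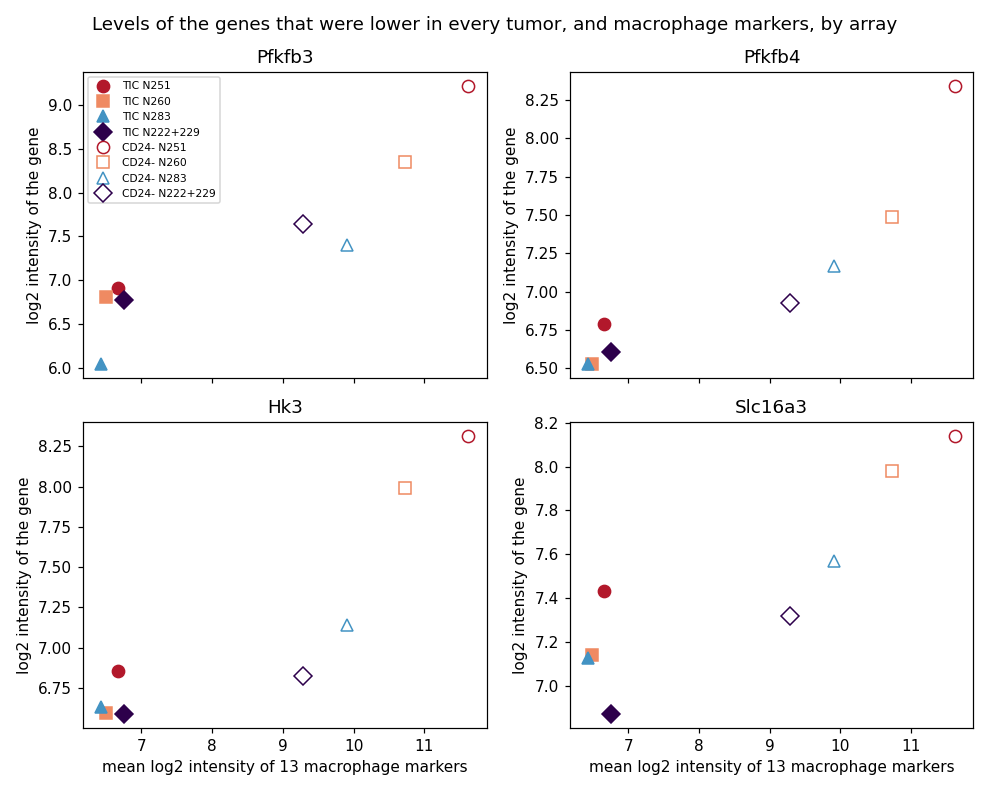
Log2 intensity of Pfkfb3, Pfkfb4, Hk3 and Slc16a3 (vertical axes) against the mean log2 intensity of 13 macrophage markers (horizontal axes) on each array, filled for TIC and open for CD24-. The TIC arrays cluster at macrophage means of 6.43 to 6.75, and the CD24- array of N251, with the highest macrophage mean (11.62), has the highest level of each gene.

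The genes most like the 2 members called with the block were sought over the 8 arrays by Pearson correlation, which is a description, since the arrays are 2 groups of 4 from shared tumors. Pfkfb3 was most like Glul (r = 0.990), Renbp (0.990) and Arl11 (0.984), which differed by -1.80, -1.61 and -0.88. Slc16a3 was most like Plcl2 (r = 0.988), Fam78a (0.987) and Slc13a3 (0.986), which differed by -0.996, -1.44 and -1.26. Among the members themselves Pfkfb3 and Pfkfb4 were alike at 0.951, and Hk3 was at 0.961 with both Pfkfb4 and Slc16a3.

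Among other genes of the pathway 1 was called, and only with the block. Over 8 lists of related genes 114 were measured, of which 0 were called without the block (limma, 6 lower and 11 higher at an unadjusted p under 0.05) and 1 rose with it. Those unadjusted counts stand beside 6.24% and 8.02% of all genes. With the block 0.863% of all genes rose, beside the 1 gene of these 114. That gene was Slc16a9, a monocarboxylate carrier family member, which averaged 9.29 ± 0.28 in TIC arrays and 8.70 ± 0.24 in CD24- arrays (SD, n = 4 each). It differed by 0.53 to 0.66 in the 4 tumors (mean 0.59, adjusted p = 0.168, and 0.0269 with the block).

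Of 18 other glycolytic enzyme genes 0 were called with or without the block (1 lower at an unadjusted p under 0.05), with a median of 0.11 beside 0.038 for all genes. Eno2, the neuronal enolase, differed by -0.30, with the same sign in each of the 4 tumors (adjusted p = 0.294). Ldhb, a lactate dehydrogenase subunit, differed by 0.69 (adjusted p = 0.362), from 1.65 in N251 to 0.10 in N283. Ldha, the other common subunit, differed by -0.09 and the phosphofructokinase genes Pfkl, Pfkm and Pfkp by 0.37, 0.40 and 0.17, all chosen after their values were seen. Pfkl, Pfkm and Pfkp differed by 1.29, 1.17 and 0.89 in N251 and by -0.26, -0.01 and -0.40 in the pool.

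Transporters related to the members held both signs. Of 12 other hexose transporters 0 were called (1 lower at an unadjusted p under 0.05; median 0.015). Slc2a3, the high-affinity transporter GLUT3, averaged 6.32 ± 0.14 in TIC arrays and 7.17 ± 0.57 in CD24- arrays with a negative difference in each tumor (mean -0.86, adjusted p = 0.178, 0.0808 with the block and 0.0380 with a random block). Slc2a6, another facilitative hexose transporter gene, differed by -0.57 (adjusted p = 0.389). Of 15 other monocarboxylate carriers and chaperones 0 were called without the block (3 lower and 2 higher at an unadjusted p under 0.05; median 0.016). The widest differences there were those of Slc16a6 (-1.59), Slc16a10, an aromatic amino acid carrier (-1.11), and Slc5a8, a sodium-coupled carrier of monocarboxylates (1.12), chosen after their values were seen. Bsg, the chaperone that takes both MCT1 and MCT4 to the membrane, differed by 0.02.

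Of 13 genes of pyruvate entry into mitochondria 0 were called (4 higher at an unadjusted p under 0.05), and the median was 0.25. In all 4 tumors 7 of them were higher and 0 lower, beside 7 and 0 of the 15 genes of gluconeogenesis and glycogen, 4 and 0 of the 8 pentose phosphate genes, and 23.2% and 11.8% of all genes. The counts were 4 and 2 of the 18 glycolytic enzyme genes, 0 and 2 of the 12 hexose transporters and 2 and 2 of the 15 carriers. They were 4 and 3 of the 20 hypoxia genes and 3 and 0 of the 13 metabolic regulators. Pcx, pyruvate carboxylase, averaged 9.41 ± 0.26 in TIC arrays and 8.56 ± 0.54 in CD24- arrays (0.85, adjusted p = 0.186, 0.0761 with the block and 0.0384 with a random block). Dlat, a core subunit of pyruvate dehydrogenase, differed by 0.44 (adjusted p = 0.280).

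Of 15 genes of gluconeogenesis and glycogen 0 were called (3 higher at an unadjusted p under 0.05; median 0.145), with Ugp2, which makes UDP-glucose, at 0.46 and Pck2, the mitochondrial carboxykinase, at 0.40 (adjusted p = 0.199 and 0.247). Of 8 pentose phosphate genes 0 were called, also at an unadjusted p under 0.05 (median 0.136). Taldo1, transaldolase, differed by 0.25 and Tktl1, a transketolase-like gene, by 0.15 (adjusted p = 0.377 and 0.461).

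Of 20 hypoxia regulators and targets 0 were called (1 lower and 1 higher at an unadjusted p under 0.05), with a median of 0.00. P4ha1, a collagen prolyl hydroxylase induced by hypoxia, differed by -0.85 and Hif1an, which hydroxylates HIF and restrains it, by 0.35 (adjusted p = 0.242 and 0.238). Of 13 metabolic transcription regulators 0 were called (1 higher at an unadjusted p under 0.05; median 0.041). Tfam, which maintains mitochondrial DNA, differed by 0.45 and Myc, a driver of glycolytic genes, by 0.20 (adjusted p = 0.283 and 0.532).

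**Figure D4:**
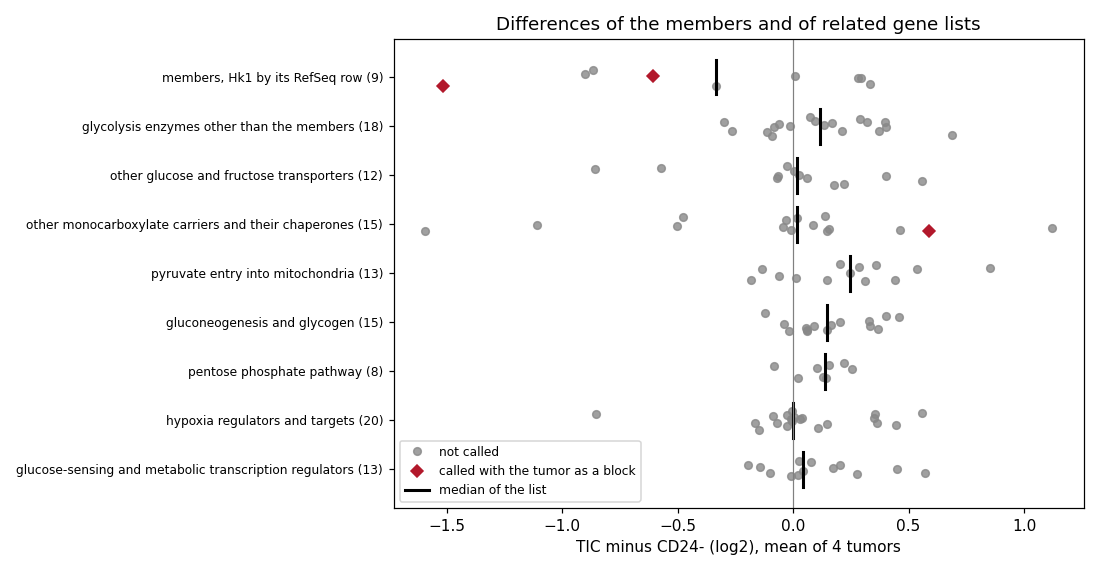
TIC minus CD24- difference (log2, mean of 4 tumors) of every measured gene in the set and in 8 related lists, with the number of genes in brackets. Red diamonds are genes called with the tumor as a replicate block (Pfkfb3, Slc16a3 and Slc16a9), grey points are not called, and black bars are medians, from -0.33 for the members to 0.25 for mitochondrial pyruvate entry.

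Markers of further cell types gave few calls. Of 9 fibroblast and 9 endothelial markers 0 were called without the block (4 and 3 were lower before adjustment at p under 0.05), with medians of -0.18 and -0.17, and 1 fibroblast marker fell with the block. In all 4 tumors 7 of the fibroblast and 5 of the endothelial markers were lower and 0 higher, beside 11.8% and 23.2% of all genes. Of 3 erythroid, 7 adipocyte and 7 muscle markers 0 were called with or without the block (0, 1 and 0 were lower before adjustment at p under 0.05), with medians of -0.11, -0.004 and -0.005. Of 9 luminal markers 0 were called (1 higher at an unadjusted p under 0.05), with mean levels of 10.51 to 10.61 in TIC arrays and 9.64 to 10.52 in CD24- arrays. The luminal mean was lowest in the CD24- array of N251. Of 6 basal markers 0 were called without the block (1 higher at an unadjusted p under 0.05) and 1 rose with it, with a median of 0.028.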

How the data were processed

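RNA from 8 sorted samples was measured on single-colour arrays. The authors deposited 1 log2 intensity per row and array. The submitters' processing notes name RMA and Partek, for which versions, parameters and build were not given in the sources used here. Intensities ran from 1.76 to 14.6. Of 35556 rows 21789 had exactly 1 symbol in the platform annotation, which gave 19938 genes, each represented by its brightest row, and 999 genes had several rows. Symbols were checked by gene identifier against a RefSeq table of GRCm38.p6 (21698 rows matched, 0 renamed). Precision is limited by how few arrays there are.

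Differences are TIC minus CD24-, from lmFit and eBayes of limma 3.58.1 (R 4.3.3) on all 8 arrays, two-sided, with Benjamini-Hochberg adjustment over all genes and calls at 0.05. The fit reported first for each gene has no block. Both fractions of a pair come from the same tumor per the labels, and their deviations from the group means correlated across genes (0.30 to 0.56), so values with the tumor as a replicate block stand beside results whose call they change, and blocked p-values are given for the members throughout. The sample titles name N251 and N260 where the growth protocol has N250 and N261, and the titles were followed. The fits were also run on simulated data with known changes. The outcome is not reported here, so it lends the calls no support.

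Members, the 8 pathway lists and the 12 marker lists were chosen with earlier results of these data known. Named from each pathway list were up to 4 genes called in either fit, or the 2 with the smallest p. The genes most like a member were the 3 with the highest correlation for each member called in either fit. Alternatives changed the block, filter, scaling, weights, variance prior, row choice, rows tested, threshold and arrays.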

Additional observations from a re-analysis of the deposited data

Results flagged for a closer look

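Gaps within a group of 4 arrays were examined in 20 groups, those of the 9 members with both rows of Hk1, and 2 arrays stood far from the other 3; chance flags about 1 group in 20. Pfkfb3 was at 6.042 in the TIC array of N283, below 6.768 to 6.913 in the other TIC arrays. Hk3 was at 6.857 in the TIC array of N251, above 6.587 to 6.628 in the other TIC arrays. In that array the neutrophil marker mean was 5.969 and the pan-leukocyte mean 6.954, each the highest of the TIC arrays, whereas the macrophage mean was 6.662, below 6.75 in the TIC array of the pool, and their part in the Hk3 value was not tested.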

How the results depend on the processing

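Without a block 10 genes were higher and 148 lower, and 0 members were called. The tumor as a replicate block gave 172 higher genes and 2 lower members. The tumor as a random block gave 430 higher and 606 lower genes and 3 lower members, and array weights gave 191, 778 and 4. Higher genes numbered 26 after median centring, 3 after cyclic loess and 2 with all rows tested, and at an adjusted p under 0.01 there were 0 higher and 58 lower. Leaving out an array or a tumor, with or without the block, gave 0 to 360 higher and 0 to 583 lower genes, 0 or 1 higher members (Slc16a1 without N251, blocked) and 0 to 2 lower members. The fits with a tumor left out and the block, and those with Hk1 from its RefSeq row, were chosen after seeing the data.

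Pfkfb2, Pfkfb3, Pfkfb4, Hk2, Hk3, Slc16a1 and Slc16a3 kept their sign in all 26 alternatives, and Hk1 from its RefSeq row in 23 of 23. Many of these could not change a sign. The block, the filter, the variance prior and the testing of all rows left each difference as it was. Leaving out a tumor gave the same difference with and without the block. Pfkfb3 ranged from -1.77 to -1.16 and was called in 5. Slc16a3 ranged from -0.751 to -0.479 and was called in 4. Pfkfb4 and Hk3 were called in 2 each. Slc2a1 turned to -0.0971 after cyclic loess and -0.159 with array weights, and ranged from -0.28 to 0.245 over the arrays and tumors left out. The brightest Hk1 row turned to -0.0668 after cyclic loess and ranged from -0.0108 to 0.073 with arrays or tumors left out. The cause of these shifts was not tested. The median of all genes was 0.071 after median centring and -0.002 after cyclic loess, beside 0.038.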
